A study of Homo sapiens with 30 samples.

Results

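The interaction of wild-type FOXP2 with CHIR99021 was examined in U2OS cells, a human osteosarcoma line, with 20 of the 30 RNA-seq libraries of the series. The interaction is the FOXP2 effect in cells with CHIR99021 minus the FOXP2 effect in cells without it, (WT FOXP2 + CHIR − CHIR) − (WT FOXP2 − mock), on the log2 scale. The series title concerns the control of FOXP2 activity by β-catenin, and the interaction asks whether FOXP2 shifts the transcriptome by the same factor when the β-catenin pathway is switched on by a drug. The 4 groups held 5 biological replicates each: mock-transfected cells (mock), cells transfected to express wild-type FOXP2 (WT FOXP2), cells treated with CHIR99021 (CHIR), and cells given both (WT FOXP2 + CHIR). The other libraries of the series are of cells with dhelix FOXP2, a helix-deleted form, without and with CHIR99021. They entered the shared fit over all 6 groups of 5 and a contrast near the end of these results. CHIR99021 was added at 5 µM 72 h before transfection, and 500 ng of plasmid was transfected for 48 h with a lipid reagent. An empty plasmid in mock cells and a mock transfection of the CHIR group are not mentioned in the labels, so the FOXP2 protein and the transfected DNA as such cannot be told apart. The promoter of the plasmid is not given in the sources used here, and 1 of the 5 WT FOXP2 + CHIR libraries (replicate 1) is described as FOXP2 without the word WT in its genotype and was grouped by its title. All cells are of 1 established line. In such bulk samples, fewer cells of a kind and less RNA per cell cannot be told apart.

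FOXP2 is a forkhead transcription factor, described mainly as a repressor and known from an inherited speech and language disorder. CHIR99021 inhibits glycogen synthase kinase 3 (GSK3), the kinase that marks β-catenin for destruction. When GSK3 is blocked, β-catenin builds up, enters the nucleus and activates target genes with the DNA-binding partners TCF and LEF. GSK3 also acts on many other proteins, so its inhibition reaches beyond Wnt signalling.

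FOXP2 (ENSG00000128573) was measured first because it checks the labels. Its level in CPM (counts scaled to library size) was 1.12, 0.686, 0.858, 1.25 and 0.577 in the 5 mock libraries, 0.257, 0.249, 0.330, 1.33 and 0.357 with CHIR, 5906, 7806, 6863, 7769 and 7039 with WT FOXP2, and 14565, 16321, 15444, 16122 and 14041 with WT FOXP2 + CHIR. Every library with the plasmid stood far above every library without it, and the 5 libraries given both lay above the 5 with WT FOXP2 alone. The mean was 7076 ± 779 CPM (SD, n = 5) with WT FOXP2 and 15299 ± 983 CPM (SD, n = 5) with both, a ratio of 2.16 (two-sided exact permutation p = 0.00794, adjusted over 4 comparisons 0.0106). The groups of the interaction therefore differed in the amount of FOXP2 RNA, and the part of that difference in the results below was not tested.

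Total counts of the 20 libraries were 15755842 to 28604957. CHIR replicate 1 stood apart, with a root mean square deviation from the mean of the other libraries of its group of 0.434 on the log2 scale. The same measure was 0.28 to 0.314 for the other 4 CHIR libraries. Class counts, and some list counts, are also given without it and WT FOXP2 + CHIR replicate 4 together. The labelled cells were checked with markers. Of 8 osteosarcoma and mesenchymal markers, 7 were above 1 CPM in each of the 4 groups and TWIST1 was at or near 0. The labels call the cells epithelial, and KRT8 and KRT18, keratins of simple epithelia, were at 199 and 169.5 CPM in mock, whereas CDH1, the epithelial cadherin, was at 0.377 CPM. The blood markers HBB and CD3E were at 0 in mock, and all 7 blood markers summed to 0.392 to 0.715 CPM there.

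Genes were tested with edgeR's quasi-likelihood test with Benjamini-Hochberg adjustment, and a gene was called at an adjusted p under 0.05. A positive interaction means that the combination was higher than the sum of the single log2 effects, and a negative one that it was lower. Values after ± are standard errors for log2 values and SDs for CPM, with n = 5 libraries per group. Before the interaction, the single effects were broad. Without CHIR, WT FOXP2 changed 15082 of 18485 genes tested (81.6%), 39.9% up and 41.6% down, and with CHIR it changed 78.4%, 38.2% up and 40.2% down. CHIR changed 74.1% of genes in mock cells, 38.8% up and 35.3% down, and 64.9% in WT FOXP2 cells, 34.8% up and 30.2% down. The combination differed from mock for 84.8%, 42.9% up and 41.9% down. Of the 18485 genes, FOXP2 set aside, 12129 (65.6%) had a called interaction: 5676 (30.7%) were higher than the sum and 6453 (34.9%) lower. An interaction of at least 1 on the log2 scale, a 2-fold departure from the product of the single effects, was reached by 4015 genes (21.7%), 2763 above the sum (14.9%) and 1252 below it (6.77%). The median interaction over all genes tested was -0.02, with quartiles of -0.43 and 0.59. Just inside the threshold stood CPNE2 (interaction 0.18 ± 0.08, adjusted p = 0.0499) and just outside it SLC30A4 (0.27 ± 0.12, adjusted p = 0.05004).

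Called genes were sorted into 3 classes by comparing the combination, WT FOXP2 + CHIR against mock, with the sum of the single effects. In synergy, the combination was called, had the direction of the sum and exceeded it. In shortfall, the combination fell short of the sum without being called in the opposite direction. In reversal, the combination was called in the direction opposite to the sum. Shortfall was the commonest class with 8685 genes (47% of those tested), followed by synergy with 1877 (10.2%) and reversal with 1567 (8.48%). Among genes with an interaction of at least 1, the classes held 3134, 281 and 600 genes. Large synergy was mostly upward, 239 of the 281 genes lying above the sum. A gene near 0 elsewhere can pass the expression filter through the combination alone and then lies above the sum. The part of such genes in this direction was not tested. Many of these large interactions rest on low levels: 195 of the 281 synergy genes, 1661 of the 3134 shortfall genes and 354 of the 600 reversal genes had a group mean under 1 CPM. Without CHIR replicate 1 and WT FOXP2 + CHIR replicate 4 the classes held 8789, 1989 and 1531 genes.

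**Figure D1:**
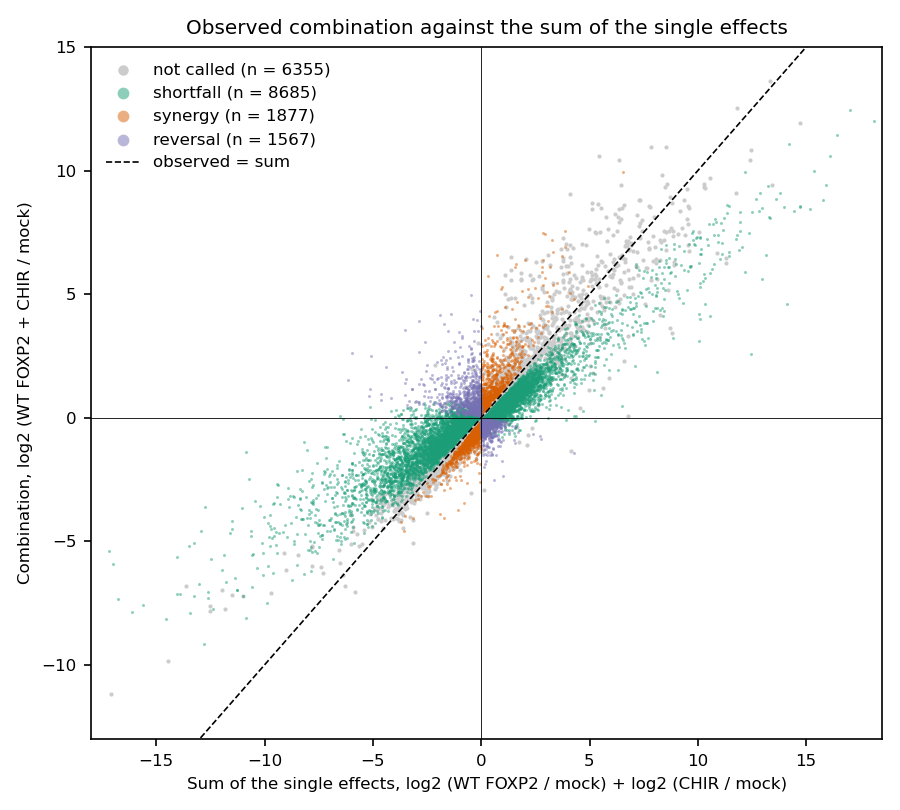
Each point is 1 gene, with the sum of the log2 effects of WT FOXP2 and of CHIR against mock on the x axis and the log2 effect of the combination against mock on the y axis; the dashed line marks equality. The 8685 shortfall genes lie between the dashed line and the x axis, or past it where the combination is not called, the 1877 synergy genes beyond the line, and the 1567 reversal genes in the 2 quadrants where the combination and the sum differ in sign.

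Before the single genes are described, the sequences upstream of a leading gene of each class and direction are shown, so that they can be set beside the levels that follow. Each is the 250 bases before the start in the RefSeq promoter table (build GRCh38.p14, 1 start per gene), 5′ to 3′ on the strand of the gene, and each gene is the first of its class and direction, by size of the interaction, with an entry in that table. Capitals mark a match to TGANTCA, the AP-1 motif; CTTTGAT or CTTTGAA (TCF/LEF) and GTAAACA or ATAAACA (forkhead) were also searched on both strands and are not in these 6 windows.
CYP4F11, synergy above the sum, chr19:15934868-15935117, minus strand: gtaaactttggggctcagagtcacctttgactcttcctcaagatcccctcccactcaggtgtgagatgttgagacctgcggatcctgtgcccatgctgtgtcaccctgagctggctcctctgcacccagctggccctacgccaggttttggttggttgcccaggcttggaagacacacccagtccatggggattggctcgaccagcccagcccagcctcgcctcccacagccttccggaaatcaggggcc
LIMCH1, synergy below the sum, chr4:41359357-41359606, plus strand: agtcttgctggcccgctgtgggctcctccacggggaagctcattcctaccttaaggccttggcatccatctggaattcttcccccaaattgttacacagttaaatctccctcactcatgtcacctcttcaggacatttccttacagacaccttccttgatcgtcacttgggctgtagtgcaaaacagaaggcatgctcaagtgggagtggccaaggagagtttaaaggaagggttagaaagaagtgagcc
CXCL14, shortfall above the sum, chr5:135578992-135579241, minus strand: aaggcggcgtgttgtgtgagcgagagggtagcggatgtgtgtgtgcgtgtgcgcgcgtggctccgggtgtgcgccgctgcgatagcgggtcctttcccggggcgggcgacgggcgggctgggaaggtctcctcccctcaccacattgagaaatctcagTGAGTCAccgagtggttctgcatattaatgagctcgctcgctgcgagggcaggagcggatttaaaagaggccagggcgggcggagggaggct
ESM1, shortfall below the sum, chr5:54985594-54985843, minus strand: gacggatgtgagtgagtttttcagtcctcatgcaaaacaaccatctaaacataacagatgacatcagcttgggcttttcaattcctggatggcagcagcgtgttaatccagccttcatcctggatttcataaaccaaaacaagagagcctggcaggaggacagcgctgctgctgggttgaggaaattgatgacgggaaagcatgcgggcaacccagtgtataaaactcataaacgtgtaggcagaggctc
PGF, reversal above the sum, chr14:74955765-74956014, minus strand: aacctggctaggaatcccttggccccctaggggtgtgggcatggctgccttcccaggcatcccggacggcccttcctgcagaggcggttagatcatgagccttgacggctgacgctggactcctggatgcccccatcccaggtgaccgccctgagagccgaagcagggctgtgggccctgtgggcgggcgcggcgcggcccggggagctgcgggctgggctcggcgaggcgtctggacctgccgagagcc
PDE4D, reversal below the sum, chr5:60496287-60496536, minus strand: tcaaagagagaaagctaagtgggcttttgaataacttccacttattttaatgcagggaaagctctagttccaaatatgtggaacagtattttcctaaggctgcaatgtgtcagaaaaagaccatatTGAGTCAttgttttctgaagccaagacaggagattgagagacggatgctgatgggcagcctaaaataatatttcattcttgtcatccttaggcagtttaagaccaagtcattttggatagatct
One match to TGANTCA stands in the CXCL14 window and 1 in the PDE4D window. Over the 27305 promoters of the table, TGANTCA was in 6.6%, the TCF/LEF letters in 6.03% and the forkhead letters in 6.61% of such windows. Only 60.2% of the tested symbols matched an entry, so shares by class are void and are not given. A match describes letters and not binding.

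The leading synergy genes above the sum were raised by WT FOXP2 and lowered by CHIR alone. DNAH17 (ENSG00000187775), a heavy chain of axonemal dynein, was at 6.03, 5.09, 5.91, 5.06 and 5.31 CPM in the 5 mock libraries, 40.5, 51.2, 44.0, 53.4 and 50.04 with WT FOXP2, 0.873, 0.746, 1.27, 1.07 and 1.37 with CHIR and 75.9, 71.9, 74.3, 72.2 and 70.8 with both. The 4 groups did not overlap, CHIR libraries being the lowest and those with both the highest. If the single effects had multiplied, 9.31 CPM would stand in place of the observed mean of 73.0 ± 2.06 CPM. Its interaction was 2.96 ± 0.16 (edgeR's quasi-likelihood test, adjusted p = 2.8e-18). The FOXP2 effect itself went from 3.12 ± 0.08 without CHIR to 6.08 ± 0.10 with it.

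ANO2 (ENSG00000047617), a calcium-activated chloride channel, was at 6.71, 7.25, 6.53, 7.39 and 5.48 CPM in mock, 16.9, 13.3, 14.2, 15.96 and 14.8 with WT FOXP2, 5.34, 5.16, 5.66, 5.05 and 5.71 with CHIR and 46.6, 50.8, 48.4, 51.3 and 52.0 with both. Mock and CHIR libraries lay close together, with 1 mock library inside the CHIR range, and the libraries with both stood above all others. The interaction was 2.03 ± 0.10 (adjusted p = 5.0e-19), with 12.1 CPM given by the product of the single effects. CYP4F11 (ENSG00000171903), a fatty acid hydroxylase whose upstream sequence is shown above, ranged over 5.999 to 9.47 CPM in mock, 21.2 to 26.5 with WT FOXP2, 2.16 to 3.81 with CHIR and 39.1 to 49.8 with both. Its interaction was 2.30 ± 0.15 (adjusted p = 6.0e-16), and no groups overlapped. C14orf105 had an interaction of 2.04 ± 0.17, from 2.08 ± 0.302 CPM in mock to 12.5 ± 1.02 CPM with both.

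The leading synergy genes below the sum were also moved in opposite directions by the single agents. LIMCH1 (ENSG00000064042), an activator of non-muscle myosin, was at 151, 155, 160.4, 157 and 151 CPM in mock, 295, 276, 278, 269.7 and 294 with WT FOXP2, 23.1, 24.6, 20.7, 21.6 and 23.6 with CHIR and 10.9, 10.2, 10.6, 9.86 and 10.5 with both. WT FOXP2 raised it in cells without CHIR and lowered it in cells with CHIR, and no groups overlapped. The FOXP2 effect was 0.87 ± 0.04 without CHIR and -1.12 ± 0.05 with it, an interaction of -1.99 ± 0.07 (adjusted p = 1.1e-24). IL18 (ENSG00000150782), a cytokine of the interleukin-1 family, was at 179.6, 191, 182, 184 and 177 CPM in mock, 121, 103, 104.997, 104 and 111 with WT FOXP2, 332, 248, 238, 257 and 265 with CHIR and 55.2, 49.3, 48.7, 49.8 and 57.5 with both. CHIR libraries were the highest, CHIR replicate 1 above the other 4, and libraries with both were the lowest. The interaction was -1.61 ± 0.10 (adjusted p = 1.0e-15). DOCK11, an activator of CDC42, had an interaction of -1.57 ± 0.19, at 16.7 ± 1.01 CPM in mock and 2.91 ± 0.219 CPM with both. DISC1, a scaffold protein studied in psychiatric genetics, had one of -1.47 ± 0.14, at 11.4 ± 0.926 and 3.50 ± 0.477 CPM.

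Synergy between 2 effects of the same direction was rare at this size. Of 4743 genes raised by both single treatments, 7 were synergy genes with an interaction of at least 1, and of 4732 genes lowered by both, 4 were. These 11 genes were named after their values were seen. In the upward group, ERICH1 went from 5.81 CPM in mock to 20.02 with WT FOXP2, 8.23 with CHIR and 82.2 with both (interaction 1.52 ± 0.11). WNT9A, a Wnt ligand, went from 3.14 CPM to 7.69, 4.58 and 27.2 CPM in the same order of groups (interaction 1.26 ± 0.15). The others were CTD-2541M15.1, the collectin gene COLEC11, RASGEF1C, LRFN5 and TCERG1L, with interactions of 1.04 to 1.85. In the downward group, ID1, an inhibitor of helix-loop-helix factors and a target of BMP signalling, was at 96.9 CPM in mock, 87.8 with WT FOXP2, 72.5 with CHIR and 31.8 with both (interaction -1.05 ± 0.07). MLLT3 (interaction -1.14 ± 0.16), a reader of histone acylation, LRRC17 and AC138123.2 made up the rest.

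Of 1430 genes that neither single treatment changed by the test, 208 (14.5%) had a called interaction of at least 1, a smaller share than the 21.7% of all genes tested. In 168 of the 208 the combination was called above mock, and 189 of the 208 had a group mean under 1 CPM, and genes that passed the expression filter through the combination alone can be among them. The classes use the sign of the sum, which was not itself tested. With 2 uncalled single effects that sign is uncertain, and noise in mock moves the sum against the interaction. By that sign 125 of the 208 were sorted as reversal, 59 as synergy and 24 as shortfall, and no result is read from this split.

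**Figure D2:**
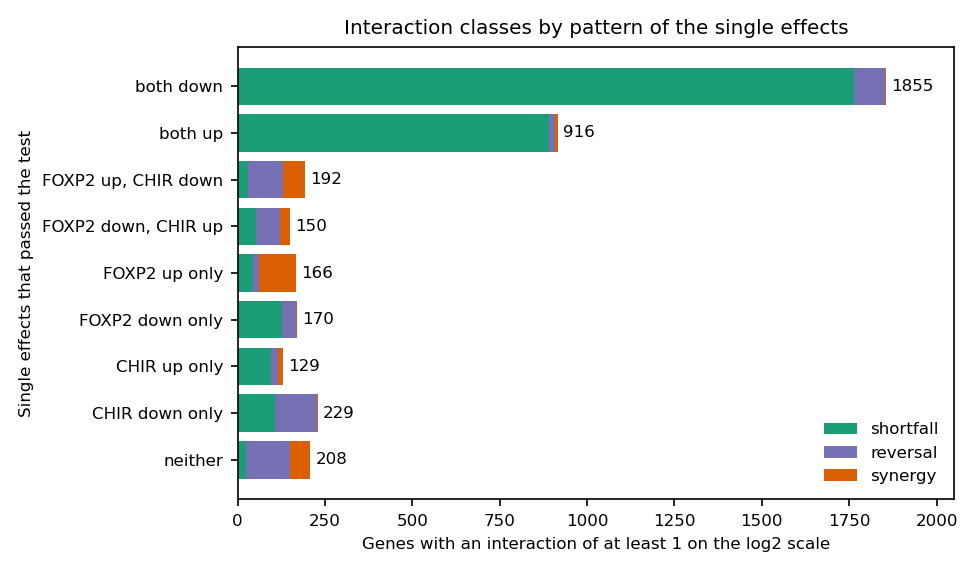
Bars count genes with a called interaction of at least 1 on the log2 scale, by which single effects passed the test (y axis), coloured by class. Genes lowered by both treatments (1855) and raised by both (916) hold most of the shortfall. Synergy genes were most numerous among genes raised by FOXP2 alone (104 of 166). Next came genes raised by FOXP2 and lowered by CHIR (62 of 192), changed by neither (59 of 208), and lowered by FOXP2 and raised by CHIR (28 of 150). Of the 281 synergy genes of this size, 195 had a group mean under 1 CPM.

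Shortfall concentrated in genes that both treatments moved the same way. Of the 4732 genes lowered by both, 3163 fell short of the sum, and of the 4743 raised by both, 3653 did. At an interaction of at least 1 these numbers were 1765 and 890. For the 1765, the median log2 effect was -1.92 for WT FOXP2, -1.60 for CHIR and -1.60 for the combination, against a median sum of -3.59. For the 890 the medians were 1.65, 1.53 and 1.64, against 3.20. The combination had a median effect about as large as either treatment alone. These genes were selected for falling short of the sum by at least 1, so the gap between combination and sum follows from the selection. A group mean under 1 CPM was found for 958 of the 1765 and 324 of the 890. Set against the larger of the single effects, the combination was called further from mock for 134 of the 1765 genes, did not differ from it by the test for 633 and was called closer to mock for 998. In the upward group the same counts were 189, 199 and 502 of 890.

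CXCL14 (ENSG00000145824), a chemokine, had the largest interaction among the shortfall genes above the sum that were measured at 1 CPM or more in each group. It was at 771, 789.7, 822, 758 and 808 CPM in mock, 3.07, 2.84, 3.13, 2.28 and 2.699 with WT FOXP2, 8.63, 10.7, 8.06, 8.28 and 10.95 with CHIR and 3.13, 2.75, 2.32, 3.12 and 2.74 with both. Mock libraries were far above the rest, and the libraries with both overlapped those with WT FOXP2 alone. The product of the single effects would be 0.0331 CPM, and the interaction was 6.44 ± 0.18 (adjusted p = 1.9e-26). EPHB3 (ENSG00000182580), an ephrin receptor and known Wnt target, was at 35.4, 34.1, 36.1, 37.4 and 37.1 CPM in mock, 4.43, 3.69, 4.25, 3.87 and 4.12 with WT FOXP2, 1.49, 2.92, 2.45, 1.71 and 2.08 with CHIR and 6.98, 8.44, 9.23, 7.36 and 7.36 with both. Each treatment alone took it below the level of the combination, with no overlap. WT FOXP2 lowered it without CHIR (-3.15 ± 0.08) and raised it with CHIR (1.88 ± 0.11), an interaction of 5.03 ± 0.14 (adjusted p = 4.8e-27). VWA5B2 (interaction 5.39 ± 0.14) and RP11-1220K2.2 (5.01 ± 0.15) had the same pattern, at 39.1 ± 1.49 and 24.0 ± 1.54 CPM in mock and 6.61 ± 0.617 and 5.63 ± 0.363 CPM with both.

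Among genes raised by both treatments, ESM1 (ENSG00000164283), a secreted proteoglycan known from endothelial cells, was at 0.729, 1.13, 1.09, 1.31 and 1.21 CPM in mock, 169.5, 198, 179, 216 and 193 with WT FOXP2, 39.7, 25.9, 27.5, 28.9 and 21.8 with CHIR and 67.9, 69.7, 63.4, 59.9 and 63.2 with both. No groups overlapped, and the libraries with both lay between those of the single treatments. Its interaction was -6.29 ± 0.19 (adjusted p = 3.4e-23). SLAMF7 (ENSG00000026751), a surface receptor best known from immune cells, was at 3.99, 4.26, 4.16, 3.87 and 3.92 CPM in mock, 55.6, 61.1, 59.7, 59.3 and 57.3 with WT FOXP2, 93.3, 96.4, 91.1, 89.7 and 105.3 with CHIR and 71.0, 66.8, 74.3, 70.1 and 68.5 with both. Again the combination lay between the single treatments, and the product of the single effects would be 1381 CPM (interaction -4.29 ± 0.07, adjusted p = 5.7e-33). DCLK1 (ENSG00000133083), a microtubule-associated kinase, was at 7.58, 8.18, 7.75, 7.33 and 7.38 CPM in mock, 184, 183, 181, 181 and 191 with WT FOXP2, 219, 145, 162, 172 and 139 with CHIR and 272, 263, 266, 263 and 269.5 with both. CHIR replicate 1 was the highest of its group, and the libraries with both lay above all others (interaction -3.91 ± 0.11, adjusted p = 1.5e-25). The transcript CTC-436P18.3 had an interaction of -3.92 ± 0.13.

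Genes with a lowest group mean under 1 CPM and a highest of at least 10 CPM were ranked apart, because their fitted values depend on few reads. The largest interactions named here were among them, although that of IL24 was smaller in size than that of ESM1. MYOCD, a coactivator of smooth muscle genes, was at 33.9 ± 1.26 CPM in mock, 0.121 ± 0.0543 with WT FOXP2, 0.0565 ± 0.0445 with CHIR and 0.824 ± 0.136 with both (interaction 11.82 ± 0.44). The combination was low, yet above both single treatments in all 5 libraries. FOXS1, a forkhead factor gene, had an interaction of 9.42 ± 0.79, or 11.3 without CHIR replicate 5, and BMF, a BH3-only gene of apoptosis, one of 8.29 ± 0.34. In the other direction, FILIP1, a filamin-interacting gene, was at 0.0517 ± 0.0436 CPM in mock, 0.0772 ± 0.0470 with WT FOXP2, 36.5 ± 4.84 with CHIR and 0.436 ± 0.150 with both (interaction -6.99 ± 1.25). The keratin-associated gene KRTAP2-3 had an interaction of -6.75 ± 0.19 and the cytokine IL24 one of -6.21 ± 0.22.

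**Figure D3:**
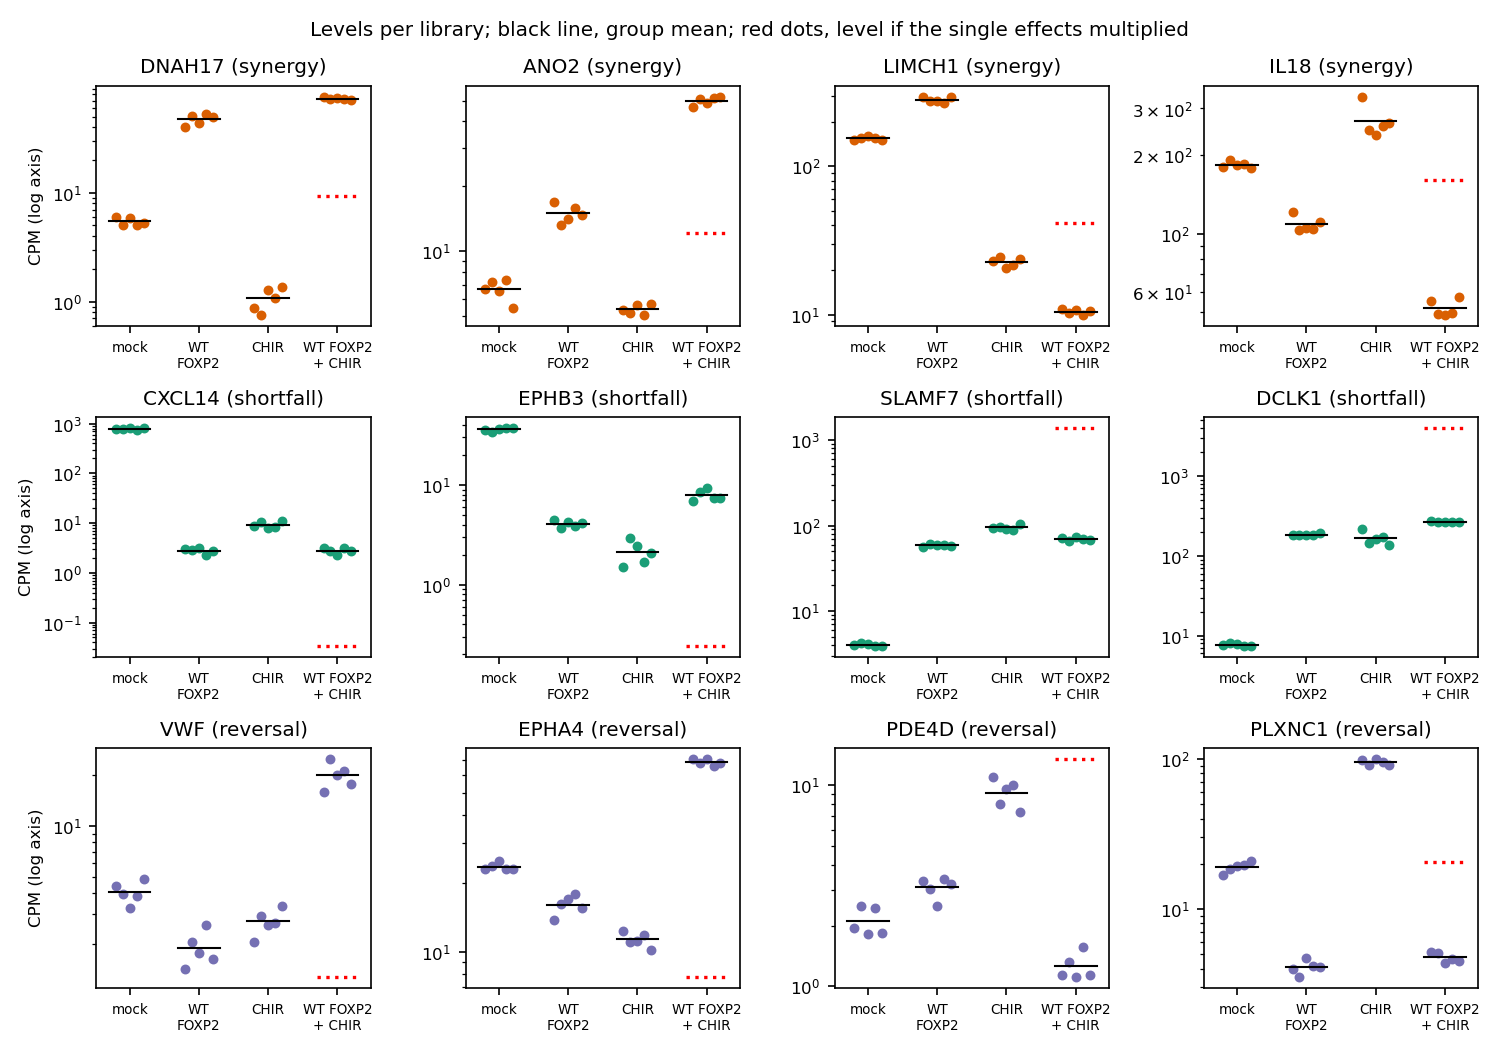
Levels in CPM (log axis) of 12 leading genes in each of the 5 libraries per group; black lines are group means and red dots the level that the product of the single effects would give. The observed libraries lie farther from mock than the red dots for the synergy genes, nearer to mock for the shortfall genes, and on the other side of mock for EPHA4 (68.5 CPM with both against 23.6 in mock) and the other reversal genes, among them PLXNC1, whose product (20.5 CPM) is close to mock (19.0 CPM).

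In the leading reversal genes above the sum, CHIR alone lowered the gene, as did WT FOXP2 except for PGF, and the combination was called above mock. EPHA4 (ENSG00000116106), an ephrin receptor of axon guidance, was at 23.1, 23.8, 25.1, 23.1 and 23.1 CPM in mock, 13.8, 16.2, 17.1, 17.9 and 15.6 with WT FOXP2, 12.4, 11.01, 11.2, 11.9 and 10.2 with CHIR and 70.6, 67.9, 70.5, 65.6 and 68.0 with both. No groups overlapped: the single treatments lay below mock and the combination above it in every library. WT FOXP2 lowered EPHA4 without CHIR (-0.55 ± 0.07) and raised it with CHIR (2.59 ± 0.07), and the interaction was 3.15 ± 0.10 (adjusted p = 1.5e-25). VWF (ENSG00000110799), von Willebrand factor, was at 4.42, 3.92, 3.27, 3.81 and 4.85 CPM in mock, 1.41, 2.04, 1.75, 2.58 and 1.61 with WT FOXP2, 2.05, 2.92, 2.59, 2.65 and 3.33 with CHIR and 15.9, 25.03, 20.2, 21.2 and 17.8 with both. Libraries with both were the highest, and the CHIR libraries overlapped both mock and WT FOXP2 (interaction 3.96 ± 0.22, adjusted p = 6.6e-18). The other endothelial markers CDH5 and TEK stayed under 2 CPM in all 4 groups.

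PGF (ENSG00000119630), placental growth factor of the VEGF family, was at 14.4, 15.7, 15.2, 14.2 and 15.3 CPM in mock, 21.0, 19.8, 22.6, 21.8 and 19.9 with WT FOXP2, 2.93, 3.42, 3.54, 3.41 and 3.81 with CHIR and 42.8, 44.7, 48.2, 44.7 and 48.5 with both. WT FOXP2 raised it a little without CHIR (0.49 ± 0.05) and strongly with CHIR (3.74 ± 0.07), whereas CHIR alone lowered it (-2.13 ± 0.07). No groups overlapped, and the interaction was 3.26 ± 0.09 (adjusted p = 4.0e-27). HID1, a gene of neuroendocrine secretion, was at 4.54 ± 0.592 CPM in mock and 6.41 ± 0.681 CPM with both, against 1.34 ± 0.124 CPM with WT FOXP2 and 1.38 ± 0.273 CPM with CHIR (interaction 3.93 ± 0.20). Its libraries with both overlapped mock by 1 library.

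Reversal below the sum was led by PDE4D (ENSG00000113448), a cAMP phosphodiesterase, at 1.94, 2.50, 1.81, 2.44 and 1.85 CPM in mock, 3.32, 3.04, 2.50, 3.40 and 3.22 with WT FOXP2, 10.9, 8.09, 9.52, 9.98 and 7.32 with CHIR and 1.14, 1.33, 1.11, 1.56 and 1.14 with both. CHIR libraries were the highest and libraries with both the lowest, without overlap (interaction -3.45 ± 0.21, adjusted p = 8.2e-17). KCNA6 (ENSG00000151079), a voltage-gated potassium channel, was at 15.5, 15.8, 13.8, 14.2 and 14.3 CPM in mock, 13.6, 13.3, 14.9, 14.2 and 14.6 with WT FOXP2, 53.5, 42.9, 56.9, 56.3 and 34.9 with CHIR and 11.2, 10.1, 9.96, 8.64 and 9.41 with both. Mock and WT FOXP2 overlapped, CHIR stood above them and the combination below (interaction -2.25 ± 0.13, adjusted p = 3.4e-17). PLXNC1 (ENSG00000136040), a semaphorin receptor, was at 16.7, 18.51, 19.3, 19.5 and 20.7 CPM in mock, 3.996, 3.49, 4.69, 4.13 and 4.12 with WT FOXP2, 99.1, 91.6, 100.0, 94.8 and 90.6 with CHIR and 5.20, 5.07, 4.38, 4.62 and 4.50 with both. CHIR raised it in mock cells (2.33 ± 0.07), and in cells with WT FOXP2 the CHIR effect was 0.23 ± 0.11, an interaction of -2.10 ± 0.13 (adjusted p = 2.1e-16). The placental glycoprotein gene PSG4, one of a family of near-identical copies whose reads are hard to assign, had an interaction of -3.03 ± 0.22.

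A change of sign of the FOXP2 effect, called in 1 direction without CHIR and in the other with CHIR, was found for 2303 of the interaction genes (19%): 1055 turned upward and 1248 downward. The CHIR effect changed sign between mock and WT FOXP2 cells for 2997 genes (24.7%), 1401 upward and 1596 downward, and 1073 genes did both. These contrasts share libraries.

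Synergy was found for 1 of 28 tested Wnt target genes (3.57%) and 6 of 58 Wnt pathway components (10.3%), against 10.2% of all genes tested. AXIN2 (ENSG00000168646), the feedback inhibitor used as a readout of β-catenin, was at 21.6, 19.9, 22.1, 19.8 and 21.3 CPM in mock, 8.73, 8.88, 7.25, 8.56 and 7.12 with WT FOXP2, 151, 137, 158, 157 and 121 with CHIR and 42.5, 58.0, 46.7, 48.0 and 50.8 with both. No groups overlapped, and WT FOXP2 lowered it without CHIR (-1.38 ± 0.11) and with CHIR (-1.56 ± 0.08). Its interaction was -0.19 ± 0.14 (adjusted p = 0.25, edgeR's quasi-likelihood test) and was not called. LEF1 (ENSG00000138795), a DNA-binding partner of β-catenin, was at 37.3, 40.7, 39.5, 39.9 and 41.0 CPM in mock, 28.1, 33.4, 29.8, 29.7 and 30.1 with WT FOXP2, 126, 121, 132, 126 and 119.9 with CHIR and 75.6, 89.5, 81.1, 81.5 and 80.6 with both. The groups did not overlap, and the interaction of -0.22 ± 0.08 (adjusted p = 0.015) was small. Its call was lost without mock replicate 1 (adjusted p = 0.0765), WT FOXP2 replicate 2 (0.072), WT FOXP2 + CHIR replicate 1 (0.0782) or WT FOXP2 + CHIR replicate 5 (0.0501), and with only genes of at least 1 CPM tested (0.105), all with edgeR's quasi-likelihood test. CTNNB1 (ENSG00000168036), which encodes β-catenin, ranged over 419 to 439 CPM in mock, 346 to 357 with WT FOXP2, 282 to 307 with CHIR and 258 to 278 with both, with an interaction of 0.13 ± 0.04 (adjusted p = 0.00375). That call was lost when no genes were filtered (adjusted p = 0.126).

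Of 28 tested Wnt target genes, 11 had an interaction above the sum (39.3%, against 30.7% of all genes tested), 6 below it (21.4%, against 34.9%) and 11 were not called, with a median of -0.07. The share called in either direction, 60.7%, was near the 65.6% of all genes. By class, 16 were shortfall, 1 synergy and none reversal. CHIR alone raised 18 of the 28 and lowered 8. The synergy gene was SNAI2, a repressor of epithelial genes, which CHIR raised and WT FOXP2 lowered (interaction -1.27 ± 0.16). MYC (ENSG00000136997), the growth regulator, was at 40.5, 38.2, 40.0, 40.2 and 42.7 CPM in mock, 245, 274, 277, 283 and 259 with WT FOXP2, 81.7, 90.2, 98.3, 89.9 and 94.2 with CHIR and 145, 146, 156, 149.6 and 149 with both. The combination lay between the single treatments, an interaction of -2.02 ± 0.07 (adjusted p = 2.0e-24). CD44, a hyaluronan receptor, had the same order, 74.2 ± 2.11, 616 ± 16.2, 103 ± 6.39 and 278 ± 8.87 CPM, and an interaction of -1.63 ± 0.05. CCND1, cyclin D1, was at 266 CPM in mock, 328 with WT FOXP2, 102 with CHIR and 266 with both, and WT FOXP2 raised it more with CHIR (interaction 1.09 ± 0.04). TCF7 had a large interaction (4.68 ± 0.63) at under 1 CPM in all 4 groups.

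**Figure D4:**
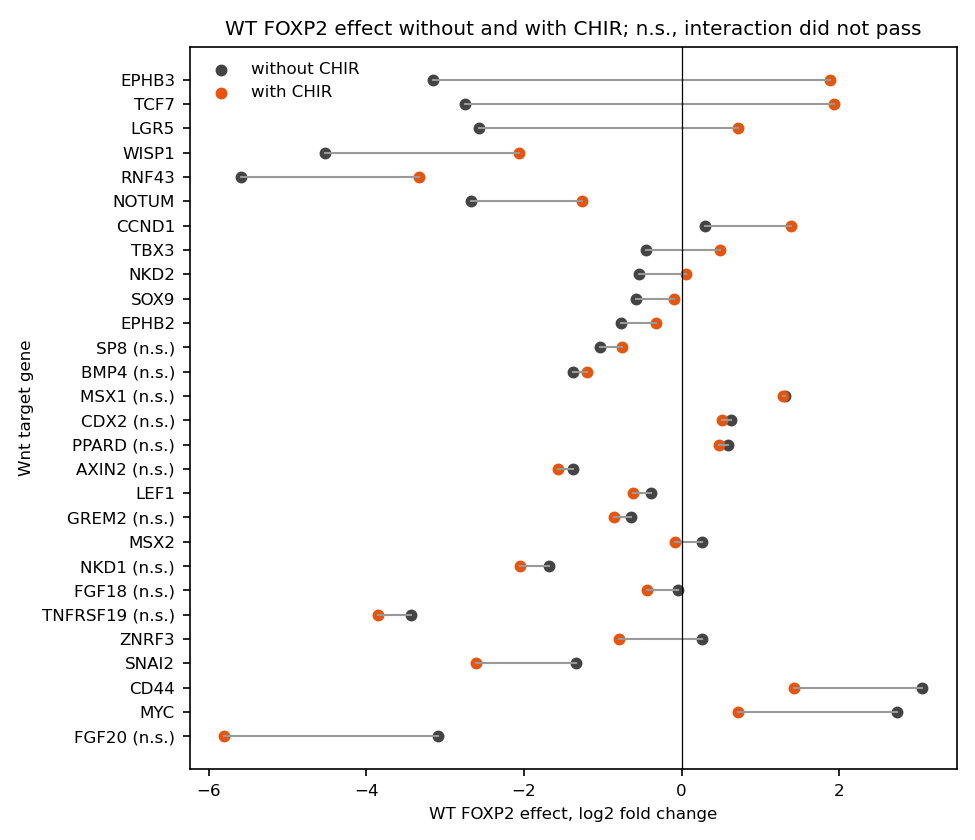
The log2 effect of WT FOXP2 on 28 Wnt target genes without CHIR (grey) and with CHIR (orange), ordered by the interaction, which is the distance between the points; n.s. marks interactions that did not pass the test. AXIN2 (-1.38 and -1.56) and LEF1 (-0.39 and -0.61) have FOXP2 effects below 0 in both settings, while EPHB3, TCF7 and LGR5 have estimates below 0 without CHIR and above 0 with it.

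Wnt pathway components were called above the sum for 28 of 58 tested genes (48.3%) and below for 16 (27.6%), with a median of 0.22. Beside these counts and those of every list below stand 30.7% above and 34.9% below over all genes tested. ROR1, a Wnt receptor kinase, had an interaction of 2.51 ± 0.13 (116 CPM in mock, 3.46 with WT FOXP2, 28.2 with CHIR, 4.75 with both). The secreted Wnt inhibitor SFRP1 (1.22 ± 0.07) and the DKK co-receptor KREMEN2 (2.66 ± 0.16) also lay above the sum. KREMEN2 was at 29.9 ± 2.39 CPM in mock, 5.38 ± 0.655 with WT FOXP2, 17.99 ± 3.94 with CHIR and 20.4 ± 2.71 with both, and the libraries with both overlapped those with CHIR alone.

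Hedgehog and Notch genes had the highest median interaction of the gene lists outside the small marker lists, 1.26, with 20 of 25 above the sum and 3 below. PTCH1 (ENSG00000185920), the Hedgehog receptor and a target of the pathway, was at 108, 101, 104.7, 106 and 108 CPM in mock, 13.8, 15.2, 14.6, 15.6 and 15.8 with WT FOXP2, 9.76, 10.5, 8.63, 8.78 and 8.51 with CHIR and 12.6, 13.3, 12.2, 12.04 and 13.1 with both. All treated libraries were far below mock, and the combination lay between the single treatments, without overlap (interaction 3.27 ± 0.08, adjusted p = 2.2e-28). GLI1, the pathway's transcription factor (2.78 ± 0.16), and BOC, a Hedgehog co-receptor (2.33 ± 0.15), were likewise lowered by each treatment, with group means of the combination between those of the single treatments. Of the 25 genes, 21 were shortfall, 1 synergy and 1 reversal.

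Collagens, laminins and other matrix genes lay above the sum for 33 of 49 and below for 10 (median 0.91); 41 were lowered by WT FOXP2 alone and 41 by CHIR alone. COL6A3, a collagen VI chain, was at 669, 643, 663, 668 and 634 CPM in mock, 461, 529, 509, 511 and 493 with WT FOXP2, 211, 233, 231, 229 and 234 with CHIR and 575, 579.7, 588, 558 and 594 with both. CHIR lowered it in mock cells (-1.53 ± 0.03) and raised it slightly in WT FOXP2 cells (0.21 ± 0.03), an interaction of 1.74 ± 0.05 (adjusted p = 2.6e-27). SMOC1, a matricellular protein, had an interaction of 4.49 ± 0.11. TNC, tenascin-C, moved the other way: it was at 591 ± 11.8 CPM in mock, 1337 ± 52.1 with WT FOXP2, 2307 ± 163 with CHIR and 1066 ± 30.1 with both (interaction -2.29 ± 0.05). Matrix proteases and their inhibitors were split, 10 above and 11 below of 30, with a median of -0.01 that turned to 0.01 with DESeq2 size factors and 0.02 with FOXP2 left out of library sizes. The share called, 70%, was near the 65.6% of all genes tested. The stromelysin MMP3 (-5.36 ± 0.17), the aggrecanase family gene ADAMTS1 (-3.18 ± 0.10) and the inhibitor TIMP3 (2.55 ± 0.09) were all shortfall genes on the log2 scale. MMP3 was at 0.470 CPM in mock, 161 with WT FOXP2, 60.1 with CHIR and 491 with both. Its combination was thus the highest group, and on the linear CPM scale it exceeded the sum of the single effects by 270 CPM.

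Axon guidance and neuronal genes lay above the sum for 33 of 56 and below for 14 (median 0.70), with EPHB3, EPHA4 and the semaphorin SEMA3E (3.06 ± 0.11) leading. Forkhead factors and FOXO targets were above for 20 of 35 and below for 8 (median 0.57). FBXO32, a ubiquitin ligase subunit of muscle wasting (2.68 ± 0.11), PIK3IP1, an inhibitor of PI3 kinase (3.61 ± 0.17), and SESN3, a stress-induced sestrin (2.26 ± 0.14), were lowered by each treatment and were shortfall genes. Sterol and fatty acid synthesis genes were above for 22 of 32 and below for 4 (median 0.39). INSIG1, the sterol-sensing brake on cholesterol synthesis, was at 21.9, 22.1, 20.4, 21.8 and 21.4 CPM in mock, 18.1, 19.95, 20.3, 19.4 and 20.5 with WT FOXP2, 13.0, 12.5, 11.9, 12.8 and 14.5 with CHIR and 56.6, 66.6, 60.2, 63.6 and 63.9 with both. The combination stood above every other library although CHIR alone lowered the gene, a reversal with an interaction of 2.39 ± 0.09 (adjusted p = 1.6e-23). SREBF1, a lipogenic transcription factor (1.58 ± 0.11), and HMGCS1, an early enzyme of the pathway (-0.76 ± 0.07), were shortfall genes in opposite directions.

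Cytosolic ribosomal protein genes lay below the sum for 75 of 78, none above, against 34.9% of all genes tested (median -0.48). CHIR alone raised 77 of the 78. WT FOXP2 raised 45 and lowered 8 without CHIR, and raised 4 and lowered 65 with CHIR, and 33 changed sign. RPL5 was at 789.7, 824, 822, 813 and 860.5 CPM in mock, 996, 966, 972, 948 and 955 with WT FOXP2, 1457, 1287, 1258, 1283 and 1295 with CHIR and 874, 876, 879.6, 915 and 871 with both. CHIR libraries were the highest, CHIR replicate 1 above the rest, and the combination came back towards mock (interaction -0.81 ± 0.04, adjusted p = 2.2e-18). RPL23 (-0.81 ± 0.05) and RPL7 (-0.64 ± 0.04) were reversal genes, slightly below mock under the combination. Reads of ribosomal protein genes can be shared with processed pseudogenes, so their levels are uncertain. Without CHIR replicate 1 and WT FOXP2 + CHIR replicate 4, 77 of the 78 were below the sum and none above. With DESeq2 size factors, and with FOXP2 left out of library sizes, 74 were below and none above.

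Mitotic genes were the only one of the 28 lists with more synergy than shortfall genes: 31 of 41 lay below the sum and 2 above (median -0.29), and 23 were synergy genes against 10.2% of all genes tested. The interactions were small, none reaching 1. CCNA2, cyclin A2, was at 177, 187, 180.2, 190.4 and 184 CPM in mock, 193, 176, 176, 176 and 188 with WT FOXP2, 158, 136, 127, 136 and 148 with CHIR and 97.9, 91.8, 88.4, 86.5 and 82.7 with both. WT FOXP2 overlapped mock, CHIR was lower, and the combination was the lowest (interaction -0.64 ± 0.06, adjusted p = 2.9e-11). ANLN, a scaffold of cytokinesis, was at 573 ± 13.7 CPM in mock, 684 ± 28.2 with WT FOXP2, 466 ± 45.2 with CHIR and 346 ± 8.79 with both (interaction -0.69 ± 0.06). CKS2, a CDK-binding subunit (-0.49 ± 0.05), was a shortfall gene, raised by both treatments. Without CHIR replicate 1 and WT FOXP2 + CHIR replicate 4, 30 were below the sum, 3 above, and 22 were synergy genes. DNA replication genes were split, 13 above and 20 below of 52 (median -0.05), and the share called, 63.5%, was near the 65.6% of all genes tested. Among them were E2F7, an atypical E2F repressor (-1.15 ± 0.07), the cyclin CCNE1 (0.86 ± 0.05) and E2F2 (1.17 ± 0.10). CCNE1 was at 71.7 CPM in mock, 104 with WT FOXP2, 44.8 with CHIR and 118 with both. It was sorted as a reversal because the product of the single effects, 65.2 CPM, lay slightly below mock. WT FOXP2 alone also stood above mock.

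**Figure D5:**
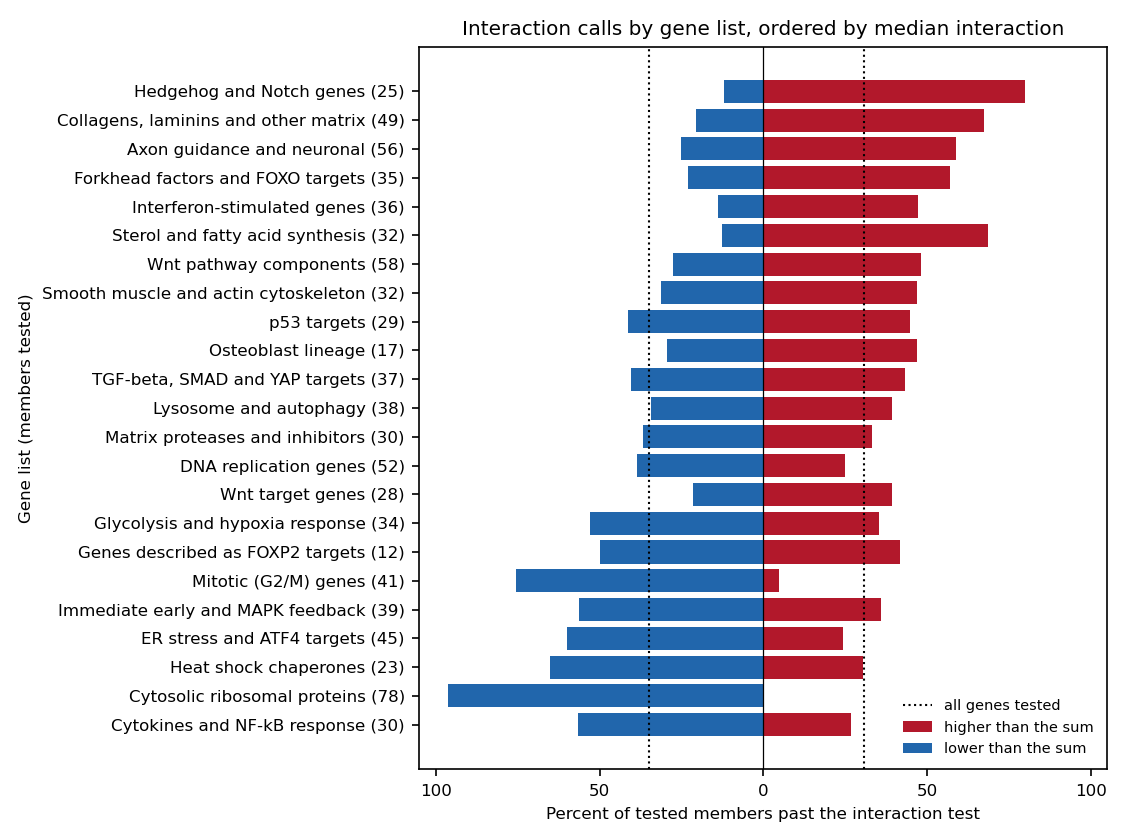
Percent of tested members of 23 gene lists with a called interaction above the sum (red, right) or below it (blue, left), ordered by the median interaction from top to bottom; dotted lines mark all genes tested (30.7% and 34.9%). Ribosomal protein genes (75 of 78) and mitotic genes (31 of 41) have the longest bars below the sum, and Hedgehog and Notch genes (20 of 25) the longest above it.

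Medians were also negative for the lists of cytokines, immediate early genes, ER stress and heat shock, and for some of the lists described further below. Cytokines and NF-kB response genes were above for 8 of 30 and below for 17 (median -0.49). The neutrophil chemokine IL8 was at 0.373 ± 0.128 CPM in mock, 87.5 ± 7.11 with WT FOXP2, 3.71 ± 0.926 with CHIR and 73.5 ± 4.63 with both (interaction -3.57 ± 0.24). The monocyte chemokine CCL2 lay above the sum (3.72 ± 0.20), at 6.86 CPM in mock, 2.58 with WT FOXP2, 0.737 with CHIR and 3.56 with both. Immediate early and MAPK feedback genes were above for 14 of 39 and below for 22 (median -0.34), with the ERK phosphatase DUSP5 at -2.64 ± 0.06 and the zinc finger factor KLF6 at -1.58 ± 0.06. ER stress and ATF4 targets were above for 11 of 45 and below for 27 (median -0.37), with the one-carbon enzyme MTHFD2 at -1.79 ± 0.06, the tRNA synthetase GARS at -0.91 ± 0.04 and the stress factor DDIT3 at -1.41 ± 0.07. Heat shock chaperones were above for 7 of 23 and below for 15 (median -0.38), with HSPA8 at -0.88 ± 0.04, HSP90AB1 at -0.74 ± 0.04 and HSPD1 at -0.99 ± 0.05.

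Glycolysis and hypoxia genes were above the sum for 12 of 34 and below for 18 (median -0.18). HK2, hexokinase 2, was at 18.7, 16.3, 18.3, 18.9 and 17.7 CPM in mock, 182, 192, 191, 194 and 196 with WT FOXP2, 104, 99.6, 97.1, 101 and 90.2 with CHIR and 191, 183, 196, 186 and 184 with both. The combination overlapped WT FOXP2 alone, and CHIR, which raised HK2 in mock cells (2.45 ± 0.05), had an effect of -0.02 ± 0.04 in WT FOXP2 cells (interaction -2.48 ± 0.06, adjusted p = 2.8e-28). The regulator PFKFB4 (2.01 ± 0.11) and the collagen hydroxylase P4HA2 (0.82 ± 0.06) were reversal genes. The p53 targets were split, 13 above and 12 below of 29 (median 0.19). GADD45A, a DNA damage gene, was at 16.8, 16.2, 15.1, 15.3 and 16.5 CPM in mock, 84.7, 90.0, 90.6, 95.9 and 85.1 with WT FOXP2, 120.4, 99.0, 115, 104.5 and 94.5 with CHIR and 87.4, 90.4, 86.8, 89.6 and 86.3 with both. The combination overlapped WT FOXP2 alone (interaction -2.76 ± 0.07). CCNG2, cyclin G2 (1.87 ± 0.09), and the nuclease gene AEN (-1.15 ± 0.06) were shortfall genes too.

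Interferon-stimulated genes were above for 17 of 36 and below for 5 (median 0.46), among them OASL (6.17 ± 0.18), PARP14 (0.77 ± 0.06) and the synergy gene IRF1 (0.90 ± 0.11). OASL was at 17.9 CPM in mock, 2.89 with WT FOXP2, 0.346 with CHIR and 4.11 with both. Lysosome and autophagy genes were above for 15 of 38 and below for 13 (median 0.01, or -0.0029 without CHIR replicate 1 and WT FOXP2 + CHIR replicate 4). In total 73.7% were called, against 65.6% of all genes tested. The cholesterol transporter NPC1 was at -1.52 ± 0.05, the autophagy gene GABARAPL1 at 2.22 ± 0.08 and the lysosomal regulator TFEB at 2.63 ± 0.17. TGF-beta, SMAD and YAP targets were above for 16 of 37 and below for 15 (median 0.02, or -0.04 without the same 2 libraries). The receptor TGFBR2 was at -1.99 ± 0.05, the feedback gene PMEPA1 at 1.44 ± 0.06 and the BMP-binding protein CRIM1 at -1.17 ± 0.05. Smooth muscle and actin genes were above for 15 of 32 and below for 10 (median 0.22), among them MYOCD, tropomyosin TPM1 (1.34 ± 0.07) and CSRP1 (-1.06 ± 0.06). Osteoblast lineage genes were above for 8 of 17 and below for 5 (median 0.19), with TNFRSF11B, which encodes osteoprotegerin, at -1.78 ± 0.09, the ligand BMP2 at -1.77 ± 0.10 and the vitamin D receptor VDR at 1.45 ± 0.08.

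Genes described as FOXP2 targets in other systems were above the sum for 5 of 12 and below for 6 (median -0.24). MET, the hepatocyte growth factor receptor, was at 50.2, 51.9, 50.6, 48.9 and 50.8 CPM in mock, 229, 231, 224, 228 and 234 with WT FOXP2, 234, 178, 189, 202 and 184 with CHIR and 199, 187, 190.2, 186 and 187 with both. The FOXP2 effect of 2.18 ± 0.05 without CHIR compares with -0.06 ± 0.04 with CHIR (interaction -2.24 ± 0.06, adjusted p = 1.8e-26). VLDLR, the reelin receptor (-0.88 ± 0.07), and FOXP4, a close relative of FOXP2 (1.44 ± 0.11), were shortfall genes, and DISC1 was described above.

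The marker lists for cell types were small. Osteosarcoma and mesenchymal markers were above the sum for 3 of 7 and below for 2, with RUNX2, a regulator of bone formation, at 1.04 ± 0.08, the cadherin CDH2 at -0.75 ± 0.05 and vimentin (VIM) at -0.70 ± 0.04. Their summed level was 5475 to 5671 CPM in mock and 2170 to 2310 CPM with both. Each single treatment also stood below mock, at 3750 to 3909 CPM with WT FOXP2 and 3090 to 3726 CPM with CHIR. Epithelial markers were above for 4 of 6 and below for 2, with KRT14 at 4.85 ± 0.36, EPCAM at 1.12 ± 0.14 and KRT18 at -0.42 ± 0.06. KRT14 fell from 24.8 CPM in mock to 0.242 with WT FOXP2, 0.940 with CHIR and 0.272 with both. Neuronal markers were above for 2 of 5 and below for 2, with SNAP25 at -1.35 ± 0.11, MAP2 at 1.79 ± 0.20 and TUBB3 at 1.02 ± 0.13. Their summed level was 63.6 to 69.9 CPM in mock and 127.9 to 147 CPM with both. It was 86.9 to 95.55 CPM with WT FOXP2 and 72.6 to 79.97 CPM with CHIR. The rise of that sum was carried by SYP, a synaptic vesicle protein. SYP was at 4.07 CPM in mock, 60.5 with WT FOXP2, 8.25 with CHIR and 101 with both. The other 4 markers summed to 58.8 to 66.1 CPM in mock and 37.7 to 42.2 CPM with both. They summed to 31.0 to 33.5 CPM with WT FOXP2 and 63.75 to 71.45 CPM with CHIR. Endothelial markers were above for 2 of 3, and blood markers below for 2 of 3 tested, among them ITGAM (-1.51 ± 0.37). ITGAM was at 0.123 CPM in mock, 10.9 with WT FOXP2, 0.563 with CHIR and 16.5 with both. Its interaction thus rests on low levels in mock and CHIR. The part of other cell types in these results was not tested.

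The interaction uses the mock libraries, which also enter both single effects and the combination. A shift in the mock libraries alone would move both single effects and the combination together and leave a shortfall. In 2101 of the 3134 shortfall genes with an interaction of at least 1 (67%), all 15 treated libraries lay on the same side of the 5 mock libraries, against 18.2% of all genes tested with the 15 above mock and 18.8% with the 15 below. A mock group that differs from the rest and 2 treatments that do not add up cannot be told apart for these genes. Of the 2101 genes, 1364 were lowered and 736 raised by both treatments, so their single effects were already called on 1 side of mock. Few synergy genes of that size were moved the same way by both treatments, and their share was 3.2%. These shares follow largely from how the classes are sorted and cannot separate the 2 readings.

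A contrast without mock or CHIR-only libraries compared the CHIR effect in WT FOXP2 cells with that in cells carrying dhelix FOXP2, a form that lacks a short stretch of residues. This equals the difference between the interactions of the 2 constructs. It was called for 2627 genes (14.2%), 977 where WT was higher (5.29%) and 1650 where it was lower (8.93%). The count rose to 4265 when CHIR replicate 1, which is not in the contrast, was left out of the shared fit. VWF differed by 0.92 ± 0.18, being at 7.46 ± 0.795 CPM with dhelix FOXP2 and 41.2 ± 3.297 CPM with dhelix FOXP2 + CHIR. PDE4D differed by -1.08 ± 0.23 and LIMCH1 by -0.50 ± 0.07. CXCL14 (-0.13 ± 0.19), SLAMF7 (-0.02 ± 0.06), MYC (0.01 ± 0.06) and AXIN2 (-0.04 ± 0.15) were not called, which does not show that the constructs act alike.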

How the data were processed

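RNA-seq (stranded mRNA libraries, paired-end) was deposited as 1 table of whole-number counts for 57373 genes in 30 libraries. Per the submitters' processing notes the authors used STAR 2.6.1a, featureCounts, Subread and DESeq2 and the hg19 build. Which annotation was counted, with which strand option, and in reads or fragments, is not given in the sources used here. Counts were analysed as deposited with edgeR 4.0.16 (R 4.3.3): TMM scaling, filterByExpr (18485 genes kept, holding 99.9% of counts) and the robust quasi-likelihood fit with a mean per group over all 6 groups of 5, which share 1 estimate of spread. Contrasts were adjusted by Benjamini-Hochberg over all genes tested, at 0.05. Standard errors are the log2 change divided by the square root of F. FOXP2 levels were compared by two-sided exact permutation tests. The p-values measure the spread between the 5 replicates of a group, which the labels call biological. The scripts were tested on simulated data.

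Genes were named by rule: FOXP2, CTNNB1, AXIN2 and LEF1; per class and sign, the 4 largest interactions with at least 1 CPM in each of the 4 groups; per sign, the 3 largest among genes with a highest group mean of at least 10 CPM and a lowest under 1 CPM; and up to 3 called members per list, by p, with a highest mean of at least 5 CPM. CDH1, KRT8, CDH5, TEK, TWIST1, SYP, HBB, CD3E, SNAI2, CCND1, TCF7, LGR5 and the synergy genes moved the same way by both treatments are outside it and were chosen after their values were seen. The members and gene lists were chosen with earlier results of these data known. Alternatives were DESeq2 1.42.0, other scalings and filters, a replicate block, glmTreat (a test against a 1.5-fold change), a linear CPM scale and leaving out libraries. No replicates agreed within sampling noise (lowest chi-square per gene 1.39).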

Additional observations from a re-analysis of the deposited data

Results flagged for a closer look

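In 30 of 428 combinations of a named gene and a group (7.01%), 1 of the 5 libraries stood far from the other 4 by Dixon's criterion, where chance gives about 1 in 20. CHIR replicate 1 accounted for 12 of the 30. It was the highest CHIR library for IL18 (332 CPM), VLDLR (58.2 CPM), MTHFD2 (488 CPM), GARS (759 CPM), HSPD1 (919.6 CPM), ANLN (545 CPM), RPL5 (1457 CPM), HMGCS1 (202 CPM) and CDH2 (150.1 CPM), and the lowest for COL6A3 (211 CPM), TIMP3 (3.96 CPM) and BOC (1.39 CPM).

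Among the other CHIR libraries, replicate 4 was the highest for FOXP2 (1.33 CPM), and replicate 5 for FOXS1 (0.298 CPM), MMP3 (75.2 CPM) and FBXO32 (5.71 CPM). In mock, replicate 2 was the highest for ANLN (597 CPM), replicate 3 the highest for HSP90AB1 (2266 CPM) and BMP2 (5.64 CPM), replicate 4 the lowest for CCNG2 (103 CPM) and PMEPA1 (497 CPM), and replicate 5 the lowest for TIMP3 (48.1 CPM) and OASL (16.1 CPM). With WT FOXP2, replicate 1 was the lowest for VLDLR (27.3 CPM) and replicate 3 the highest for RUNX2 (9.69 CPM). With WT FOXP2 + CHIR, replicate 1 was the highest for PFKFB4 (25.9 CPM) and CRIM1 (123 CPM), replicate 2 the lowest for HSPA8 (2188 CPM) and HSP90AB1 (3473 CPM), and replicate 4 the highest for RPL5 (915 CPM).

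The interaction differed between WT and dhelix FOXP2 for 2627 genes by the test of the difference itself.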

How the results depend on the processing

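Shortfall remained the commonest class under every alternative run. When tested against a 1.5-fold change with glmTreat, by construction a stricter test, 2831 genes were above the sum and 1940 below, with 284 synergy, 3742 shortfall and 745 reversal genes and 1529 and 1911 sign changes of the FOXP2 and the CHIR effect. With only genes of at least 1 CPM tested, synergy and reversal genes of at least 1 (log2) numbered 183 and 383. The WT against dhelix contrast called 1973 genes without WT FOXP2 replicate 5, 4265 without CHIR replicate 1 and 3975 without CHIR replicate 1 and WT FOXP2 + CHIR replicate 4; the cause was not tested. The FOXP2 level with CHIR against mock, -1.09 on the log2 scale (two-sided exact permutation p = 0.0635, n = 5), ranged from -1.517 to -0.9246 with 1 library left out, and passed the test without CHIR replicate 4 (exact permutation p = 0.00794). With 1 library left out in turn, 5510 to 6017 genes were above the sum, 6009 to 6511 below, and synergy, shortfall and reversal held 1777 to 2043, 8580 to 8908 and 1497 to 1629 genes. With the replicate block these were 5678, 6453, 1885, 8672 and 1574 genes; the labels do not tie the numbers to shared cultures, and same-numbered libraries correlated by -0.0775 to 0.145. The DESeq2 test gave 5762 above and 6302 below. Of 2996 values of 107 named genes under the alternatives other than glmTreat and the linear scale, 2990 kept direction and call and none reversed; the 6 others were LEF1 and CTNNB1. Against 1.5-fold, 6 of the 106 called named genes lost the call: CTNNB1, LEF1, CKS2, CCNA2, RPL7 and KRT18. Low levels limit the largest interactions: 5056 tested genes had a mean under 1 CPM in at least 1 of the 4 groups.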
